A study of Rattus norvegicus with 4 samples.

Results

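Calcium cycling genes of the cardiomyocyte were followed in the rat left ventricle: Atp2a2, Pln, Ryr2, Slc8a1, Cacna1c and Jph2. The members are all probe sets that the platform annotation assigns to these 6 genes, which gave 15 probe sets of the 7006 that carry 1 gene symbol (4736 genes in all). Total RNA was hybridised to 4 oligonucleotide arrays, 1 for each group and with no replicates. The groups were terminal heart failure, double transgenic rats (dTGR) treated with losartan, untreated dTGR, and a Sprague Dawley control (SD control). The dTGR carries the human renin and the human angiotensinogen gene, and losartan blocks the angiotensin II type 1 receptor. The label of the terminal sample names no genotype of its own. All 4 samples, the SD control included, carry one description, which says that rats with both transgenes die after 7 weeks with hypertension, heart hypertrophy and proteinuria. No source used here gives age, sex, dose, the promoters of the transgenes, how many animals stand behind an array, or whether RNA was pooled.

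Contraction of the cardiomyocyte is triggered when calcium enters the cell through the L-type channel, whose pore is made by Cacna1c. This entry opens the ryanodine receptor, encoded by Ryr2, on the sarcoplasmic reticulum, and junctophilin 2, encoded by Jph2, holds both membranes close to each other. The heart relaxes when the pump encoded by Atp2a2 (SERCA2) returns calcium to the reticulum, under the brake of phospholamban (Pln), and when the sodium-calcium exchanger encoded by Slc8a1 carries the rest out of the cell. Loss of the pump and of junctophilin 2 and gain of the exchanger have been described in failing hearts of several species.

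The deposited values are probe set intensities on a linear scale, and the authors' values had nearly the same trimmed mean on every array (199.5, 199.2, 199.6 and 199.2 for terminal heart failure, losartan-treated dTGR, dTGR and SD control). Intensities up to 26.0, the 40th percentile of all values, were treated as a floor below which levels have no order. The medians were less alike, at 38.7, 40.2, 47.4 and 40.1 in the same order of groups. Of all 8799 probe sets, 58.1%, 59.2%, 63.5% and 59.2% were above the floor. Levels above the floor in dTGR only are to be read beside these shares. A call required a difference of at least 2-fold and a level over the floor on 1 or both arrays of the pair. Where the level on 1 array was under the floor, the fold is given as a lower bound. With 1 array a group there is no error between replicates, no test and no p-value, so every fold below is a size on these arrays only. One chip lot held the terminal and losartan arrays, and a different one the dTGR and SD control arrays. No other array shared the run day of the terminal one, and only the dTGR record lists 0 cycles for both first washes and 0 seconds of first stain, where the others list 10 and 4 cycles and 600 seconds. In ventricular RNA a lower level per cell and a smaller share of cardiomyocytes cannot be told apart. Markers of ventricular muscle were present on every array. All 11 probe sets of the 8 measured cardiomyocyte markers were above the floor, and their summed intensity was 122507, 173001, 258803 and 131839 in terminal heart failure, losartan-treated dTGR, dTGR and SD control. In terminal heart failure against SD control, 1 of 15 fibroblast probe sets was at least 2-fold higher and 7 were lower. Over all probe sets the shares were 7.36% and 8.62%. The median log2 difference of the fibroblast probe sets was -1.08. In dTGR against SD control 1 was higher and 2 lower of 16 (7.95% and 6.16% of all probe sets), with a median of -0.75. Col3a1 X70369_s_at, a fibrillar collagen, had 946.8 in terminal heart failure, 3451 in losartan-treated dTGR, 2224 in dTGR and 3814 in SD control. Dcn went the other way in terminal heart failure, higher than in SD control on each of its probe sets (11476 against 7676 on the brightest). Postn had 103.6 there and lay under the floor in SD control. Of 11 macrophage probe sets, terminal heart failure had 5 at least 2-fold above and 4 below SD control, beside the same 7.36% and 8.62% of all probe sets. Their median was 0.86. Lyz2, the macrophage lysozyme, had 2121 in terminal heart failure against 583.3 in SD control, and Cd74, the invariant chain of class II molecules, was lower there on all 4 of its probe sets. Summed intensities in terminal heart failure, losartan-treated dTGR, dTGR and SD control, which a few bright probe sets carry, were 19936, 20587, 18078 and 22660 for fibroblasts, 7179, 5771, 6053 and 6130 for macrophages, 359.4, 432.9, 414.6 and 293.0 for endothelium, and 1964, 1595, 1847 and 2324 for smooth muscle. In the same order they were 162.7, 152.5, 362.7 and 280.1 for lymphocytes, 1486, 1414, 1343 and 1315 for adipocytes, 12654, 11459, 16235 and 9743 for erythroid cells, 9639, 12734, 16257 and 11814 for skeletal muscle, and 41043, 18050, 72785 and 5401 for atrium, whose list holds Nppa. Most of the skeletal muscle sum was Ckm M10140_at, which is also on the cardiomyocyte list (9025, 12149, 15753 and 11234). Of the 11 skeletal muscle probe sets, 5, 4, 3 and 5 were above the floor. The part of these markers in the results below was not tested. Nppa, which encodes atrial natriuretic peptide and marks cardiac load, was 6.58-fold to 11.9-fold higher in terminal heart failure than in SD control over its 4 probe sets, and 12.5-fold to 18.5-fold higher in dTGR. Nppb, the related B-type peptide, was 1.36-fold and 1.85-fold higher in these groups.

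Of the 15 member probe sets, 9 were above the floor on all 4 arrays, 2 on 3 arrays, 2 on 1 array and 2 on none. The 9 were all 4 of Atp2a2 and 1 of each other gene. Jph2 was lowest in terminal heart failure, Cacna1c was low in both terminal heart failure and dTGR, and the brightest probe set of Slc8a1 was highest in dTGR. The probe sets of Atp2a2 disagreed with each other in direction, and Pln differed by less than 2-fold in every comparison.

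**Figure D1:**
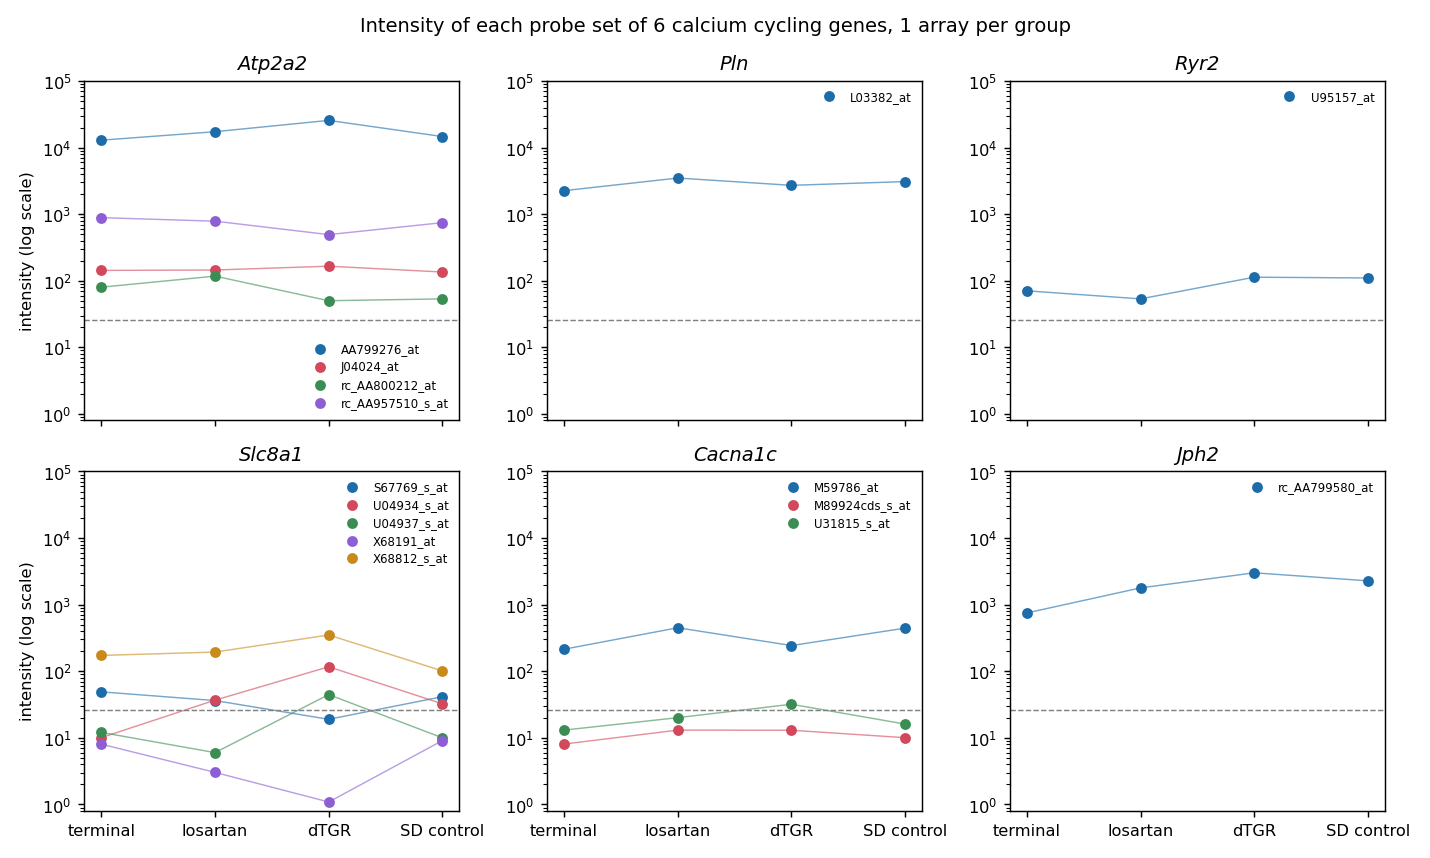
Intensity of each of the 15 probe sets (log axis) on the 4 arrays, with 1 panel per gene, 1 point per array and lines joining the points of a probe set. The dashed line is the floor of 26.0. Jph2 lies lowest in terminal heart failure (752.1), Cacna1c M59786_at is low in terminal heart failure and dTGR, and Slc8a1 X68812_s_at peaks in dTGR (350.9).

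In terminal heart failure against SD control, 11 of the 15 probe sets were above the floor on at least 1 array, of which 0 were at least 2-fold higher and 2 were lower, where 7.36% and 8.62% of all 4686 probe sets were. In dTGR against SD control, 2 of 13 were higher and 0 lower, against 7.95% and 6.16% of all probe sets. Losartan-treated dTGR against dTGR gave 1 higher and 2 lower of 13 (all probe sets 5.87% and 10.4%), and against SD control 1 higher and 1 lower of 11 (2.75% and 6.10%). Terminal heart failure against dTGR gave 0 higher and 3 lower of 13 (8.29% and 11.3%), and against losartan-treated dTGR 0 higher and 2 lower of 11 (8.90% and 6.93%). With 0 to 3 calls in a comparison, these counts say little of the genes as a group, and the data lie in the single members.

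Cacna1c, the pore of the L-type channel and the trigger of the cycle, was measured above the floor on all arrays by 1 of its 3 probe sets. M59786_at had an intensity of 214.5 in terminal heart failure, 449.8 in losartan-treated dTGR, 243.5 in dTGR and 444.1 in SD control. The untreated disease arrays were thus low, and the losartan array equalled the control within 1.01-fold. The level was 2.07-fold lower in terminal heart failure than in SD control and 1.83-fold lower in dTGR than in SD control, the second short of the 2-fold call. After losartan it was 1.85-fold higher than in dTGR, and in terminal heart failure it was 2.10-fold lower than after losartan. Both the terminal and losartan arrays and the dTGR and SD control arrays are pairs from 1 chip lot, and the lower level was present within each lot. The low array of each lot was also the one set apart in its run, the terminal array by its run day and the dTGR array by its fluidics settings, and these cannot be told apart from the group. The log2 difference between terminal heart failure and SD control ran from -1.05 to -0.90 over the 8 settings of scaling and floor, and that between dTGR and SD control from -1.11 to -0.71, so both lay on either side of the call. The order with both untreated disease arrays under both others was seen in 22.9% of all 3461 probe sets above the floor on 4 arrays, and among the 9 members also in Pln. M89924cds_s_at lay under the floor on every array and U31815_s_at exceeded it only in dTGR, where it was at least 1.23-fold over SD control.

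Jph2, the tether that keeps the L-type channel and the ryanodine receptor in register, had 1 probe set, rc_AA799580_at. Its intensity was 752.1 in terminal heart failure, 1784.2 in losartan-treated dTGR, 3013.4 in dTGR and 2277.2 in SD control. Terminal heart failure stood apart below the other 3 arrays. The level there was 3.03-fold lower than in SD control, 4.01-fold lower than in dTGR and 2.38-fold lower than in losartan-treated dTGR. Among the upper 50% of probe sets by level, counting those measured over the floor in each pair, 1.94%, 0.356% and 3.76% had a lower log2 difference than Jph2. All 3 differences stayed past 2-fold in the 8 settings, with log2 ranges of -1.68 to -1.51, -2.02 to -1.71 and -1.25 to -1.12. The comparison with losartan-treated dTGR is within a chip lot, and all 3 are between run days, which cannot be told apart from the group. Abundant contractile and energy genes of the cardiomyocyte, measured by 30 probe sets above the floor, had median log2 differences of -0.18, -0.95 and -0.44 in the same comparisons, against -1.60, -2.00 and -1.25 for Jph2. Fibroblast markers, with the median of -1.08 given above, moved apart in terminal heart failure against SD control. Of the 13 probe sets above the floor on both arrays, 9 were lower, as was Jph2, and the 4 of Dcn were higher. The part of these markers in the Jph2 value was not tested. The dTGR level of Jph2 exceeded that of SD control 1.32-fold, and after losartan it was 1.69-fold lower than in dTGR. The terminal array was the lowest for 36.0% of probe sets above the floor on 4 arrays, and for 4 of the 9 members.

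Ryr2, the release channel, was measured by U95157_at alone. Its intensity was 70.8 in terminal heart failure, 53.5 in losartan-treated dTGR, 113.5 in dTGR and 110.3 in SD control. The terminal and losartan arrays were low and the other pair high, a split that coincides with the chip lots. After losartan the level was 2.12-fold lower than in dTGR and 2.06-fold lower than in SD control, and both differences fell short of 2-fold in some settings, with log2 ranges of -1.08 to -0.78 and -1.05 to -0.74. In terminal heart failure it was 1.56-fold lower than in SD control. Within the lots, terminal heart failure was 1.32-fold higher than losartan-treated dTGR, and dTGR was 1.03-fold higher than SD control, with a sign that turned in some settings. The same order by chip lot was found in 21.2% of probe sets above the floor on 4 arrays, and among the members also in Jph2. The ratio of 3' to 5' signal of Gapdh, a sign of RNA integrity, was 1.28, 2.17, 1.73 and 1.34 in terminal heart failure, losartan-treated dTGR, dTGR and SD control, and its part in these values was not tested.

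Atp2a2, the pump of the sarcoplasmic reticulum, had 4 probe sets, all above the floor on every array. The brightest, AA799276_at, had an intensity of 12949 in terminal heart failure, 17324 in losartan-treated dTGR, 25659 in dTGR and 14656 in SD control. The dTGR array was high and the others lay closer together. The dTGR level exceeded that of SD control 1.75-fold, and in terminal heart failure it was 1.98-fold lower than in dTGR and 1.13-fold lower than in SD control. rc_AA957510_s_at showed a nearly opposite order, with 889.0 in terminal heart failure, 785.5 in losartan-treated dTGR, 494.9 in dTGR and 746.4 in SD control. On this probe set dTGR was lowest, 1.51-fold under SD control, and terminal heart failure was 1.80-fold higher than dTGR. J04024_at varied little, with 143.5, 145.2, 166.0 and 135.4 in the same order of groups. rc_AA800212_at stood out after losartan, with 117.5 against 80.3 in terminal heart failure, 50.3 in dTGR and 53.5 in SD control. That was 2.34-fold higher than dTGR and 2.20-fold higher than SD control, with log2 values that fell under 1 in some settings.

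The Atp2a2 probe sets disagreed in direction in 5 of the 6 comparisons, and in losartan-treated dTGR against SD control in size. Their log2 differences between dTGR and SD control ran from -0.60 to 0.81, a range of 1.40, where the median range over 38 genes with at least 4 such probe sets was 0.95. Between terminal heart failure and dTGR the range was 1.83, larger than in 76.7% of 43 such genes, and between terminal heart failure and losartan-treated dTGR it was 0.73, larger than in 18.4% of 38. Scaling also bore on the brightest probe set. After quantile normalization its log2 difference was -0.23 for dTGR against SD control and 0.09 for terminal heart failure against dTGR, so both directions turned. Its intensity followed the summed cardiomyocyte markers given above, which were highest in dTGR as well, and the 30 abundant contractile and energy probe sets had a median log2 difference of 0.79 between dTGR and SD control. Actc1, the cardiac alpha-actin of that list, was 2.55-fold higher in dTGR than in SD control, and Myl2, the regulatory light chain of ventricular myosin, 1.89-fold to 2.21-fold over 3 probe sets. The part of this shift of bright transcripts, or of the fluidics settings of the dTGR array, in the Atp2a2 value was not tested. The 4 probe sets shared no direction for Atp2a2 in dTGR, since 2 were higher and 2 lower than in SD control, rc_AA800212_at by only 1.07-fold. Between terminal heart failure and SD control, 3 were higher and 1 lower, none of them 2-fold.

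Pln, the small membrane protein that inhibits the pump until it is phosphorylated, had 1 bright probe set, L03382_at. Its intensity was 2260.4 in terminal heart failure, 3491 in losartan-treated dTGR, 2717.8 in dTGR and 3090.7 in SD control. Both untreated disease arrays lay under the other pair, by less than 2-fold throughout. Terminal heart failure was 1.37-fold lower than SD control and 1.55-fold lower than losartan-treated dTGR, while dTGR was 1.14-fold lower than SD control. Losartan-treated dTGR was 1.29-fold higher than dTGR and 1.13-fold higher than SD control. The sign of these 5 differences was the same in all 8 settings, and that of terminal heart failure against dTGR (1.20-fold lower) was not.

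**Figure D2:**
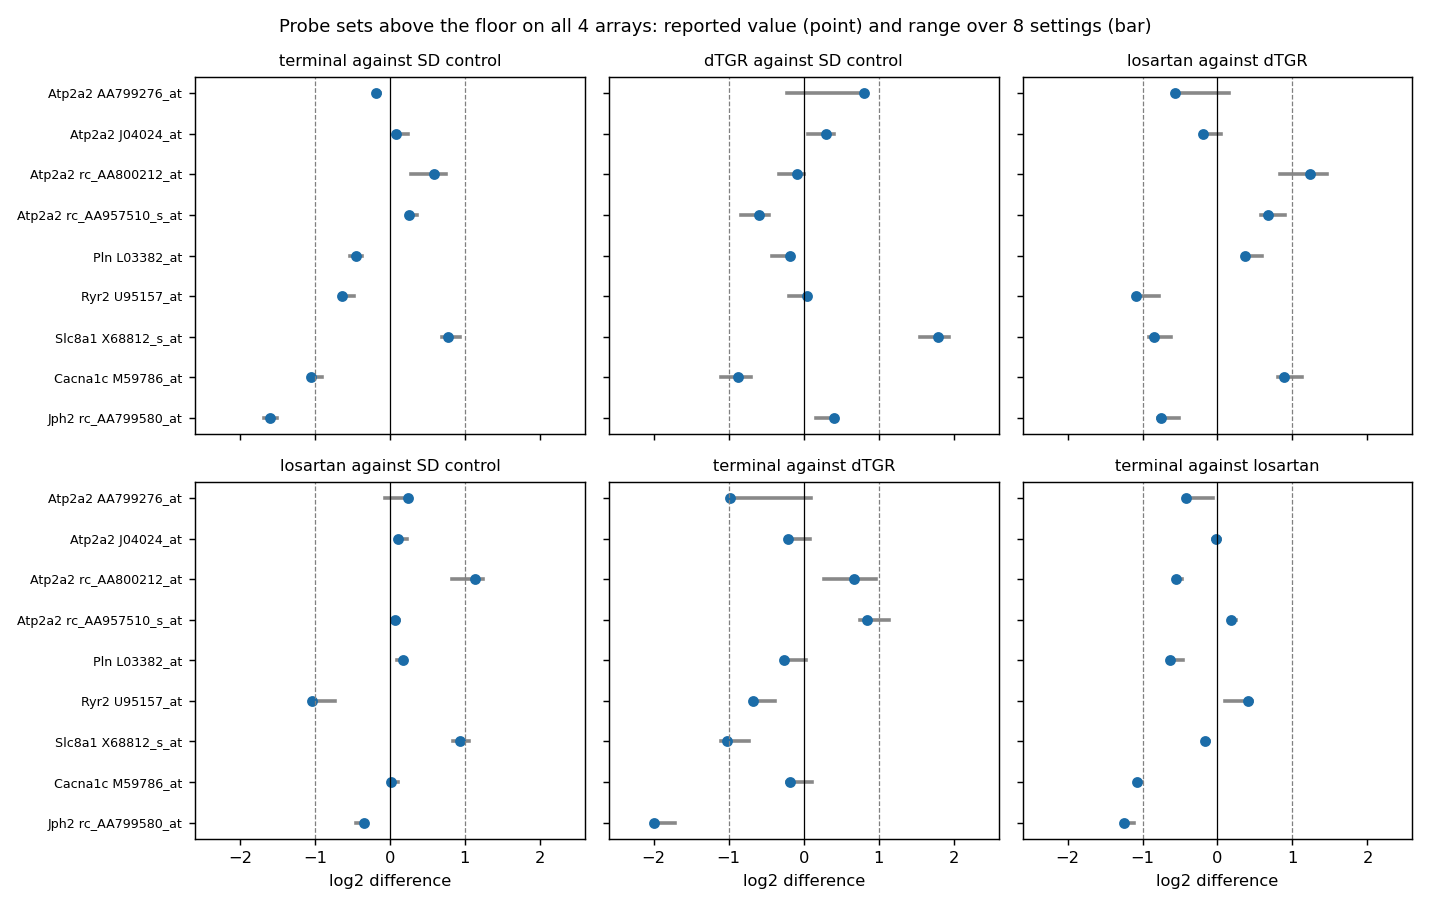
Log2 difference (x axis, first group minus second) of the 9 probe sets above the floor on all 4 arrays, with 1 panel per comparison. Points are the reported values, bars the range over 8 settings, and dashed lines mark 2-fold. Jph2 lies past 2-fold in each comparison of terminal heart failure, and the bar of Atp2a2 AA799276_at crosses 0 in 4 panels.

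Slc8a1, the exchanger that removes calcium from the cell, had 5 probe sets, 4 of them of the kind marked _s_at, whose probes match several transcripts of a gene or family. The brightest, X68812_s_at, had an intensity of 173.1 in terminal heart failure, 194 in losartan-treated dTGR, 350.9 in dTGR and 101.2 in SD control. The dTGR array was highest and SD control lowest, with the terminal and losartan arrays between them. The level in dTGR was 3.46-fold higher than in SD control, a log2 difference of 1.79 that ran from 1.55 to 1.93 over the settings and exceeded that of 99.2% of upper probe sets. It was 1.80-fold lower after losartan than in dTGR, and 1.92-fold higher than in SD control. In terminal heart failure it exceeded SD control 1.71-fold and was 2.03-fold lower than in dTGR, a log2 difference that ran from -1.10 to -0.73. SD control was the lowest array for 17.3% of probe sets above the floor on 4 arrays. The dTGR array was the highest for 27.4% of them and the lowest for 23.5%, against 5 and 2 of the 9 members.

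U04934_s_at also peaked in dTGR, at 116.9, against 36.8 in losartan-treated dTGR and 32.4 in SD control, and lay under the floor in terminal heart failure. The level in dTGR was 3.60-fold higher than in SD control, it was 3.17-fold lower after losartan than in dTGR, and in terminal heart failure at least 4.49-fold lower than in dTGR. With the floor at the 60th percentile, where SD control lies under it, the lower bound for dTGR was 0.82 on the log2 scale, short of 2-fold, and the differences of losartan-treated dTGR and of terminal heart failure from dTGR were likewise bounds of -0.82. U04937_s_at exceeded the floor in dTGR only, at 44.7, at least 1.72-fold over SD control. S67769_s_at went the other way, with 49.1 in terminal heart failure, 36.3 in losartan-treated dTGR and 41.5 in SD control, and under the floor in dTGR. X68191_at was under the floor on all 4 arrays. Of the 4 probe sets of Slc8a1 with a value in dTGR or SD control above the floor, 3 were thus higher in dTGR and 1 was lower. dTGR and SD control share a chip lot and differ in fluidics settings, which cannot be told apart from the group.

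Ratios within an array do not depend on how arrays are scaled, unless the scaling bends with level. Slc8a1 and Atp2a2 were set against each other in this way, since exchanger and pump compete for the same calcium, and so were Pln and Atp2a2, brake and pump. With the brightest probe set for each gene, the log2 difference of Slc8a1 exceeded that of Atp2a2 by 0.95 in terminal heart failure against SD control, by 0.99 in dTGR against SD control and by 0.70 in losartan-treated dTGR against SD control. Over the pairs of probe sets above the floor on both arrays, 6 of 8 had this sign for terminal heart failure and 5 of 12 for losartan-treated dTGR. For dTGR the pairs ran from 0.99 to 2.44, but they hold only X68812_s_at and U04934_s_at. S67769_s_at was left out of them because it was under the floor in dTGR, and its log2 difference there, at most -0.68, was below that of each Atp2a2 probe set. The sign in dTGR thus differed between the probe sets of Slc8a1. The 3 comparisons share the SD control array. For losartan-treated dTGR against dTGR the same probe sets of Slc8a1 gave -2.89 to -0.29 relative to Atp2a2, while S67769_s_at, again left out by the floor, was at least 1.40-fold higher after losartan.

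For Pln relative to Atp2a2 the brightest pair gave -0.27 in terminal heart failure against SD control, -0.99 in dTGR against SD control and 0.93 in losartan-treated dTGR against dTGR. All 4 pairs were negative for terminal heart failure, from -1.04 to -0.27, and 3 of 4 were negative for dTGR. For losartan-treated dTGR against dTGR 2 of 4 were positive, from -0.86 to 0.93. The choice of the Atp2a2 probe set thus set the sign in both comparisons with dTGR. After quantile normalization the dTGR value of the brightest pair was -0.023.

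**Figure D3:**
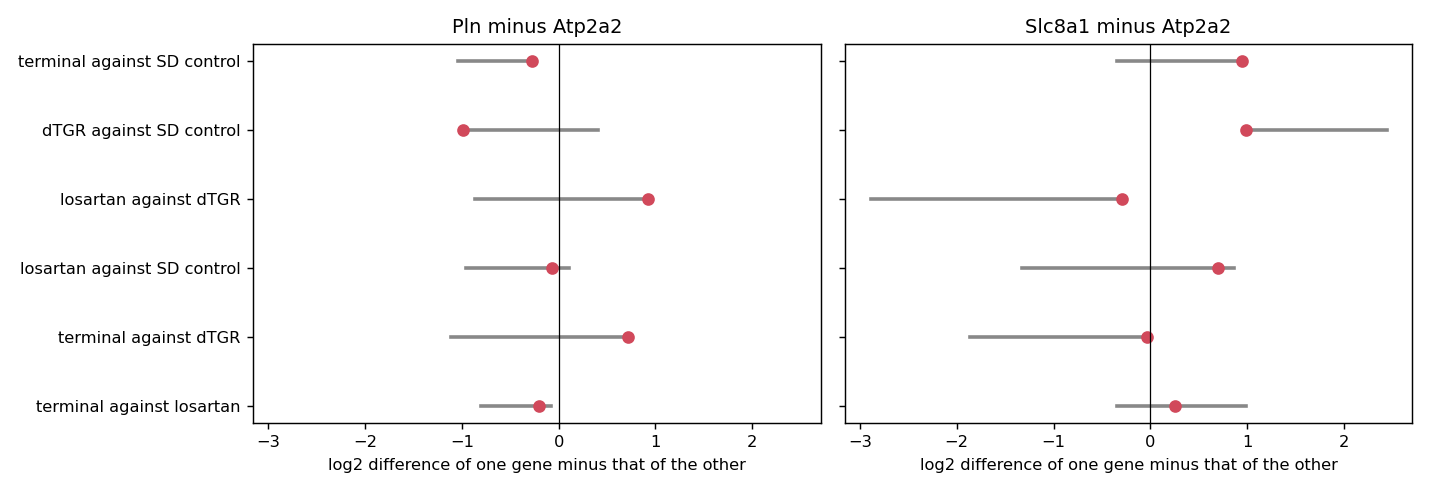
Log2 difference of Pln (left) or Slc8a1 (right) minus that of Atp2a2 (x axis) in 6 comparisons (y axis). Points use the brightest probe set of each gene and bars span the pairs of probe sets above the floor on both arrays. In the comparisons with dTGR the bars for Slc8a1 leave out S67769_s_at, which was under the floor in dTGR and differed the other way, so that they cover only probe sets that were high there (0.99 to 2.44 in dTGR against SD control).

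Partners of these genes were taken from 3 lists of calcium handling, of which 61 of 89 genes had a probe set (115 in all). In terminal heart failure against SD control, 0 of the 82 probe sets above the floor on at least 1 array were at least 2-fold higher and 6 were lower, with a median log2 difference of -0.18 over 73 above the floor on both arrays, against -0.13 over all 3862 such probe sets. In dTGR against SD control, 2 of 90 were higher and 5 lower, with a median of 0.05 over 74 probe sets. Losartan-treated against untreated dTGR gave 3 higher and 9 lower of 90, losartan-treated dTGR against SD control 2 higher and 6 lower of 85, terminal heart failure against dTGR 5 higher and 12 lower of 85, and terminal heart failure against losartan-treated dTGR 2 higher and 5 lower of 83. These counts are read beside the shares over all probe sets given above, and those with dTGR depended on the scaling. With same-median scaling, losartan-treated against untreated dTGR gave 6 higher and 4 lower, and terminal heart failure against dTGR 8 higher and 2 lower. Terminal heart failure against dTGR gave 7 and 7 after quantile normalization and 6 and 6 after cyclic loess, so no direction is given for the lists in these comparisons.

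Around the release channel, Asph, whose locus also encodes the calsequestrin anchor junctin, had an intensity of 386.9 in terminal heart failure, 823.4 in losartan-treated dTGR, 820.8 in dTGR and 1091 in SD control. Terminal heart failure was the low array, 2.82-fold under SD control and 2.13-fold under losartan-treated dTGR. Sri, the gene of sorcin, which binds the release channel and the L-type channel, was likewise lowest in terminal heart failure, at 96.8 against 143.5 in losartan-treated dTGR, 167.0 in dTGR and 213.4 in SD control, 2.20-fold lower than SD control. Casq2, the calcium buffer inside the reticulum, differed little, with 1312 in terminal heart failure, 1508 in losartan-treated dTGR, 1660 in dTGR and 1554 in SD control. The probe set of Fkbp1b, a stabiliser of the release channel, was under the floor on all arrays. Calr, the buffer calreticulin, had 173.1 in terminal heart failure, 60.9 in losartan-treated dTGR, 83.5 in dTGR and 178.3 in SD control on X53363cds_s_at. On this probe set dTGR was 2.14-fold and losartan-treated dTGR 2.93-fold lower than SD control, and losartan-treated dTGR was 1.37-fold lower than dTGR. The other probe sets of Calr were 1.10-fold and 1.11-fold lower after losartan than in SD control. In dTGR D78308_at was nearly level with SD control (1944 against 1948) and D78308_g_at was 1.20-fold higher. Itpr3, a receptor for inositol trisphosphate, was 2.26-fold lower after losartan than in dTGR on 1 probe set and 1.13-fold higher on the other. On the first of these, both arrays of the chip lot with the terminal and losartan samples lay under both others.

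Among the regulators, S100a1, a calcium sensor that enhances the pump and the release channel, was lowest in terminal heart failure on all 4 of its probe sets, 1.39-fold to 1.68-fold under SD control. Both arrays of the chip lot with the terminal and losartan samples lay under both others on each of these probe sets, and also for Sri and for Fxyd1, described below. Prkaca, the catalytic subunit of protein kinase A, which phosphorylates phospholamban and the release channel, was 3.73-fold lower in terminal heart failure than in SD control on X57986mRNA_s_at (421.2 against 1571) and 1.80-fold lower on X57986mRNA_r_at. It was also 3.31-fold and 3.10-fold lower after losartan than in SD control, again with both arrays of 1 chip lot under both of the other. Camk2d, the cardiac calmodulin kinase, had 6 probe sets. On the brightest, rc_AA894330_s_at, losartan-treated dTGR was highest at 800.2, against 351.4 in terminal heart failure, 460.3 in dTGR and 528.2 in SD control. Terminal heart failure was 2.28-fold lower there than losartan-treated dTGR. L13407_i_at, rc_AI009268_at and rc_AA925495_at were also highest after losartan. L13406_s_at instead peaked in dTGR, at 73.2, and was 2.24-fold lower after losartan, with the same split by chip lot as Prkaca. J05072_at was highest in SD control, at 40.6. Ppp1r1a, an inhibitor of protein phosphatase 1, was 2.32-fold lower in terminal heart failure than in dTGR on J05592_g_at. Its other probe set, J05592_at, lay under the floor on both of these arrays. In dTGR against SD control J05592_at was at least 2.50-fold lower and J05592_g_at 1.33-fold higher. Pde3a, a phosphodiesterase that limits cyclic AMP near the pump, was 3.49-fold lower after losartan than in dTGR and 2.71-fold lower than in SD control. Its intensity was 52.0 in terminal heart failure, 32.1 in losartan-treated dTGR, 112.1 in dTGR and 87.1 in SD control, so the losartan value lay near the floor. Adrb1, the main beta-adrenergic receptor of the heart, was 2.08-fold higher in dTGR than in SD control and 2.88-fold lower after losartan than in dTGR, and lay under the floor in terminal heart failure. For Pde3a and Adrb1 too, both arrays of the chip lot with the terminal and losartan samples lay under both others.

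**Figure D4:**
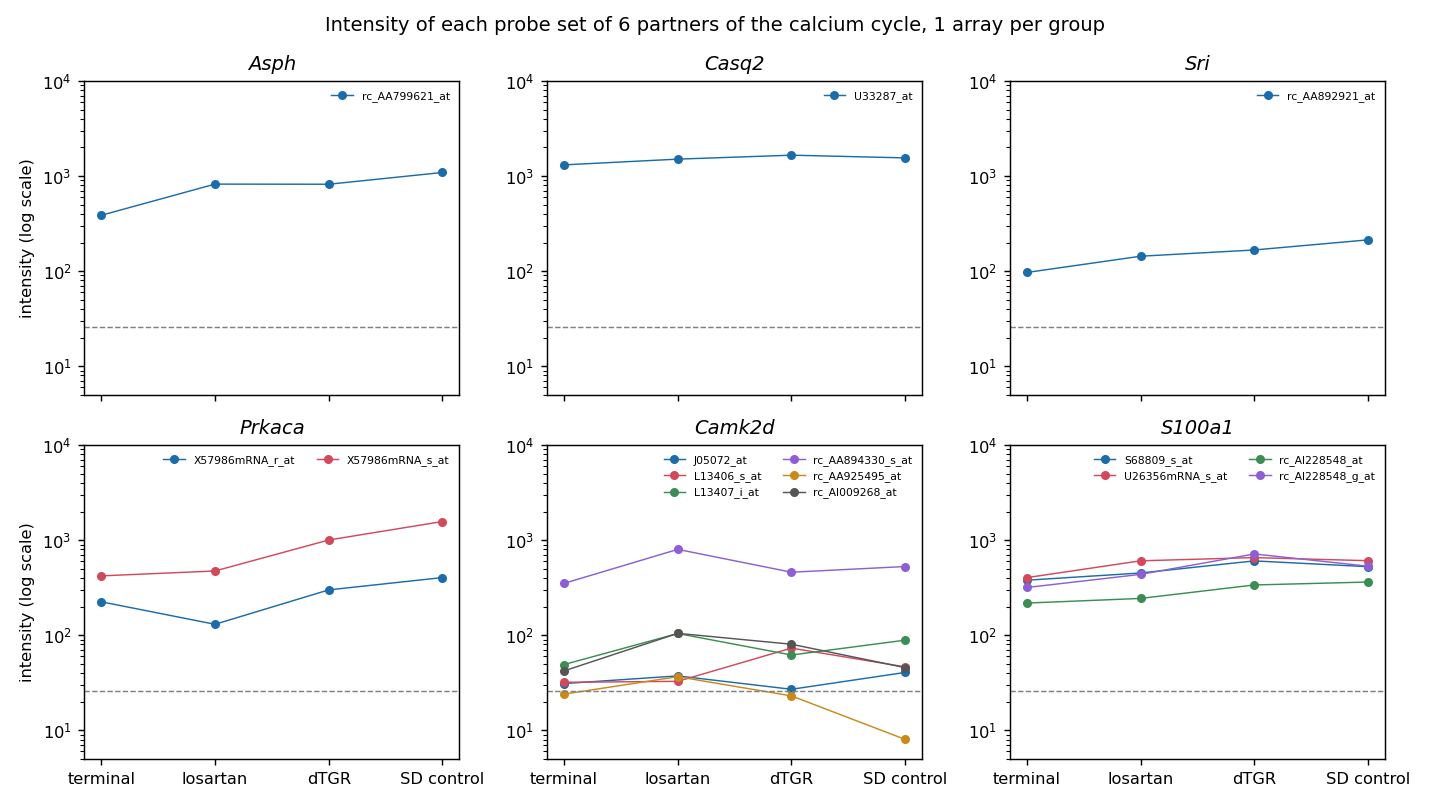
Intensity (log axis) of every probe set of 6 partners of the calcium cycle on the 4 arrays, with points joined by probe set and the floor dashed. Asph, Sri and each probe set of S100a1 lie lowest in terminal heart failure, Casq2 is nearly level (1312 to 1660), and both probe sets of Prkaca are low in terminal heart failure and after losartan.

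At the plasma membrane, Cacna2d1, an auxiliary subunit of the L-type channel, was lowest in dTGR, with 605.1 in terminal heart failure, 619.2 in losartan-treated dTGR, 372.7 in dTGR and 574.2 in SD control. It was 1.54-fold lower in dTGR than in SD control and 1.05-fold higher in terminal heart failure, unlike the pore Cacna1c, which was low on both arrays. Fxyd1, the gene of phospholemman, which regulates the exchanger, was 2.12-fold and 2.20-fold lower in terminal heart failure than in dTGR on its pair of probe sets, and 1.69-fold and 1.46-fold lower than in SD control.

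The pattern of levels over the 4 arrays was also matched to that of other genes, by the distance between log2 values less their mean over the arrays. This distance holds the size of the differences as well as their order, so a wide profile has fewer others near it. For Jph2, 17 of 3445 probe sets lay within 0.5, the fewest of the 9 member probe sets. Its profile was also the widest of the 9, at 4.01-fold from lowest to highest. The nearest genes were Cyss (0.20) and Pcp4l1 (0.27). For Slc8a1 X68812_s_at they were Snap23 (0.27) and Mapk12 (0.27), with 23 probe sets within 0.5. For Cacna1c they were Gramd4 (0.087) and Meox2 (0.11), for Pln Ech1 (0.036) and Scamp1 (0.048), and for Ryr2 Pla2g5 (0.036) and Thra (0.097). The probe sets of Atp2a2 had no nearest gene in common. AA799276_at was nearest to Prdx2 (0.021) and Oaz2 (0.077), J04024_at to Bok (0.030) and Dnajb9 (0.047), rc_AA957510_s_at to Psmb3 (0.031) and Scp2 (0.037), and rc_AA800212_at to Copz2 (0.22) and Maco1 (0.22). With 4 values a profile, up to 979 probe sets (28.4%) lay within 0.5, for J04024_at, the narrowest profile at 1.22-fold. The names thus describe likeness on these arrays only.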

How the data were processed

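The authors deposited 1 table of probe set intensities on a linear scale for 4 arrays, already scaled; no source used here names the software, its version or detection calls. Many deposited values under 32 look like day and month (15 of the 60 member values), which moves them by less than 1 unit. The instrument records came with each array, per the file headers.

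For scaling, every array was brought to a shared trimmed mean (2% off each end; factors 0.999 to 1.00), set to the floor of 26.0 and taken to log2. Probe sets were named from the platform annotation. Nothing was fitted or tested, since each group has 1 array. Members and lists were chosen with earlier results of these data known. Named were all member probe sets, list members past 2-fold and above the floor on both arrays (up to 6 for a list and comparison), those of 11 fixed partners that had a probe set (some items are not reported here) and the 2 genes nearest in pattern. Plots and order patterns of arrays were chosen after the values were seen. The steps were tested on simulated arrays. Alternatives were same-median, quantile and cyclic loess scaling (limma 3.58.1), floors at the 25th and 60th percentile, a pseudocount of 16 and, added after seeing the data, low values read as 1 decimal and, for the disagreement of Atp2a2 probe sets, genes with 4 or more.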

Additional observations from a re-analysis of the deposited data

How the results depend on the processing

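No paired analysis was possible because each group has 1 array. Jph2 stayed at least 2-fold lower in terminal heart failure than on each other array, and Slc8a1 X68812_s_at at least 2-fold higher in dTGR than in SD control, in all 8 settings. Counts of member probe sets past 2-fold moved by 1 or 2 in many settings. In terminal heart failure against SD control 1 was lower with same-median scaling, cyclic loess or a pseudocount. In dTGR against SD control 1 was lower with same-median scaling or the 25th percentile floor, and 1 was higher with the 60th. In losartan-treated against untreated dTGR same-median scaling gave 2 higher and 1 lower, quantile normalization 1 lower, and the 60th percentile floor 0 and 0. In losartan-treated dTGR against SD control quantile normalization and cyclic loess gave 2 higher and 0 lower, and the 60th percentile floor and the pseudocount 0 and 0. In terminal heart failure against dTGR same-median scaling gave 2 higher, quantile normalization and cyclic loess 1, and the 25th percentile floor 1 higher and 5 lower. The difference of Pln minus Atp2a2 in terminal heart failure against dTGR was 0.72 and turned to -0.38 after quantile normalization, and it was then -0.023 in dTGR against SD control and 0.21 in losartan-treated against untreated dTGR. Slc8a1 minus Atp2a2 after quantile normalization was 2.16 in dTGR against SD control, -1.07 in losartan-treated against untreated dTGR, and -1.19 in terminal heart failure against dTGR, and after cyclic loess 1.65 in dTGR against SD control. The cause was not tested. Same-median scaling moved the median of all probe sets to -0.22 in dTGR against SD control, where 237 were higher and 530 lower against 399 and 309, to 0.18 in losartan-treated against untreated dTGR (458 and 335 against 297 and 525) and to 0.14 in terminal heart failure against dTGR (656 and 298 against 417 and 568). Cyclic loess raised the share of higher calls to 58.5% in terminal heart failure against SD control (46.1% as reported), to 56.8% against dTGR (42.3%) and to 41.3% in losartan-treated dTGR against SD control (31.1%), and quantile normalization raised it to 46.8% in losartan-treated against untreated dTGR (36.1%) and to 53.8% in terminal heart failure against dTGR. The 25th percentile floor gave 360 to 881 higher and 518 to 1086 lower calls over all probe sets, and the 60th 38 to 241 and 118 to 206. The calcium lists had 10 lower in terminal heart failure against SD control with the 25th percentile floor and 3 with the 60th (6 as reported), 20 and 6 against dTGR (12), 12 and 3 against losartan-treated dTGR (5), and 17 and 3 in losartan-treated against untreated dTGR (9). In dTGR against SD control they had 0 to 9 higher over the settings (2 as reported). Reading low values as 1 decimal changed no count of members past 2-fold. Levels near the floor limit Ryr2, Slc8a1 and the lesser probe sets.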

Other observations

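Further partners of the calcium cycle were past 2-fold in at least 1 comparison, and the probe sets of Trpc1 and Atp2b1 disagreed in direction. Trpc1, a cation channel of the plasma membrane, was 4.40-fold lower in dTGR than in SD control on AF061266_at (32.6 against 143.2) and 1.23-fold higher on AF061266_g_at. Atp2b1, a calcium pump of the plasma membrane, had an intensity of 68.6 in terminal heart failure, 43.7 in losartan-treated dTGR, 26.1 in dTGR and 37.6 in SD control on its brightest probe set, and was 2.63-fold higher in terminal heart failure than in dTGR, where it lay at the floor. Its other probe sets, rc_AI172499_at and rc_AI103671_at, exceeded the floor in dTGR only. They were at least 1.46-fold and 1.04-fold lower in terminal heart failure than in dTGR. Prkacb, another catalytic subunit of protein kinase A, had 285.7 in terminal heart failure, 602.5 in losartan-treated dTGR, 274.7 in dTGR and 475.9 in SD control on rc_AA891881_at, with both untreated disease arrays low. Adcy5, a cyclase that makes cyclic AMP in the heart, was 2.18-fold higher in dTGR than in SD control on 1 probe set near the floor and 1.26-fold higher on the brightest. Prkce, a protein kinase C of the cardiomyocyte, had 4 probe sets, each lower in terminal heart failure than in SD control, by 1.13-fold to at least 2.12-fold. Each was also lower after losartan than in SD control, by 1.22-fold to 2.08-fold. On all except rc_AA799421_at, both arrays of the chip lot with the terminal and losartan samples lay under both others.

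Among contractile and energy genes of the cardiomyocyte, Csrp3, the muscle LIM protein, had 5183 in terminal heart failure against 2379 in SD control. This was 2.18-fold higher, the 1 higher call among 30 probe sets, with 2 called lower (7.36% and 8.62% of all probe sets). Both lower calls were of Myh6, by 2.41-fold and 2.39-fold. At any size, 9 of the 30 were higher and 21 lower. Fabp3, the fatty acid binding protein of the heart, was 2.24-fold lower in terminal heart failure than in losartan-treated dTGR and 2.48-fold lower than in dTGR. Des, the intermediate filament desmin, was 2.11-fold lower after losartan than in dTGR.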
